A study of Mus musculus with 23 samples.

Results

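The genes described here are 41 genes of fatty acid oxidation and ketogenesis in mouse liver, taken by symbol from a fixed list among the 27179 genes of the count table. All 41 were found, and all had a mean of at least 1 CPM, the count scaled to a common library size. By the step at which the encoded proteins act, 16 belong to the mitochondrial machinery (carnitine shuttle, β-oxidation spiral and electron transfer), 8 to peroxisomal oxidation, and 17 to steps outside both, namely fatty acid uptake and binding, acyl-CoA synthesis and hydrolysis, fuel choice, CoA supply and the last enzyme of ketone body synthesis. The grouping is by step, so some of these 17 act inside either organelle, and "mitochondrial" and "peroxisomal genes" below mean the 16 and the 8. The study asked how an oncogenic Braf allele and loss of Icmt, the methyltransferase that finishes the processing of prenylated proteins such as RAS, change the liver.

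RNA was sequenced from livers of 15 mice. All were females, and the sampled tissue was free of visible tumors, as the methods describe it. All 3 groups carried the Alb-Cre transgene, which drives recombination in hepatocytes, and Trp53 flx/flx, so that p53 is targeted in hepatocytes of the controls as well. The 6 Ctrl mice had wild-type Braf and Icmt flx/+, the 6 ABpIF/+ mice the BrafCA allele (a knock-in that expresses BrafV600E after recombination) and Icmt flx/+, and the 3 ABpIF/F mice BrafCA and Icmt flx/flx. The design text gives the mutants as BrafCA/+ whereas their genotype label reads BRAF +/+, and the strain labels list Zc3h12a tm1c as wild type in all mice. ABpIF/F mice were rarely born. Ages are not in the labels, and the ABpIF/F mice are described as differing in age and as bearing liver tumors outside the sampled tissue. The strain labels of 1 Ctrl mouse, BG3, and of all mutant mice name a further cross that those of the other 5 Ctrl mice do not, so strain label and Braf genotype cannot be told apart except through BG3.

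As background, a long-chain fatty acid is bound in the hepatocyte by fatty acid binding protein, activated to acyl-CoA, passed into mitochondria as carnitine ester, and shortened there by repeated rounds of dehydrogenation, hydration, dehydrogenation and thiolysis. Electrons from the first step reach the respiratory chain through the electron transfer flavoprotein. Peroxisomes shorten very long, branched and dicarboxylic acids and bile acid precursors. In fasting liver the acetyl-CoA so formed is turned into ketone bodies, and many genes of the whole route are targets of the nuclear receptor PPARα.

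Each mouse had 24742910 to 32262649 counted reads. Icmt transcript stood at 15.2, 15.7 and 16.6 CPM in ABpIF/F livers against 27.8 to 34.7 in Ctrl and 27.8 to 37.4 in ABpIF/+ livers. The lower Icmt level in every ABpIF/F mouse goes with its label, although gene counts do not show which exons the reads cover. Hepatocyte RNA was present in all livers. Alb took 8.2% to 11.1% of counts in Ctrl, 12.0% to 15.8% in ABpIF/+, and 12.4%, 14.2% and 18.1% in ABpIF/F livers. Its share was thus higher in every mutant mouse than in any Ctrl mouse. Of the 10 hepatocyte markers counted below, Alb among them, 4 had negative log2 fold changes in ABpIF/+ and 6 in ABpIF/F against Ctrl. BG3 had the highest level among Ctrl mice in 27 of the 41 genes, and BG183 the highest among ABpIF/F mice in 33. Since this is bulk tissue, fewer cells of a type and less RNA per cell cannot be told apart.

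Upstream sequences at some of these genes follow as description, and whether they bear on the levels was not tested. They are given here from RefSeq on GRCm38.p6, a patch release of the mm10 genome. Those at Hadha and Hadhb, Acaa1a and Acaa1b overlap 0 exons of the GENCODE M21 annotation. That at Fabp1 was cut at the annotated gene's start and not checked for exons of other genes. The first is the 85-base stretch between Hadha and Hadhb, which encode the α and β subunits of the mitochondrial trifunctional protein and are transcribed away from each other on chromosome 5, with 9 CpG sites and 69.4% G or C. It lies at chr5:30155163-30155247 and is written on the strand of Hadhb. Capitals mark GC boxes (GGGCGG on either strand).
Hadha-Hadhb: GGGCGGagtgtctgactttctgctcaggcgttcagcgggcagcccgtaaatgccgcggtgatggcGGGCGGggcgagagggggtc
The second set compares the 120 bases upstream of the RefSeq starts of Acaa1a (chr9:119341174-119341293, plus strand) and Acaa1b (chr9:119157094-119157213, minus strand), peroxisomal thiolases which share 21.6% and 22.6% of their mRNAs' 100-base stretches exactly but whose levels differed. Capitals mark GC boxes and CCAAT boxes (CCAAT on either strand).
Acaa1a: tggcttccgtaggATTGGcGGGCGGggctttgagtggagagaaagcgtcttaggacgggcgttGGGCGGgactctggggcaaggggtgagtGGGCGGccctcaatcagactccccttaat
Acaa1b: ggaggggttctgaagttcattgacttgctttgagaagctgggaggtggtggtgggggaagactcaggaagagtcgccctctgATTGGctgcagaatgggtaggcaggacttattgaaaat
Acaa1a had 3 GC boxes and Acaa1b 0, and each had 1 CCAAT box. The Acaa1a stretch is upstream of the RefSeq start only, as it lies within the GENCODE gene, which begins at chr9:119339676. A GC box was found in the same 120 bases of 29.1% of 27025 genes with a window and of 17 of the 36 members with one, and a CCAAT box in 24.2% of all genes and in 15 of the 36. The 27025 genes include genes of any level, and the shares among genes of at least 1 CPM, as all members are, were not counted. The third is the stretch upstream of Fabp1 at chr6:71199788-71199826, plus strand, which ends at the last base before the annotated gene. Capitals mark the match to a pair of AGGTCA copies with any 1 base between them, the direct repeat recognised by PPARα with its partner RXR, here in reverse orientation. It was searched on both strands with up to 1 mismatch in the 250 bases upstream of each start.
Fabp1: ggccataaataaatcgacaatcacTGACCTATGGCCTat
The match lies 67 bases upstream of the RefSeq start, which is downstream of the annotated gene's first base. Such a match was found at 0.566% of all 27025 genes and at 1 of the 36 members. A match of letters is a description and shows no binding.

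The livers of both mutant groups had lower levels of these genes than Ctrl livers. In ABpIF/+ as compared to Ctrl, 20 of the 41 members fell and 0 rose at the threshold used throughout, an adjusted p under 0.01 by edgeR's quasi-likelihood test and at least a 2-fold change. Over all 27179 genes, 5.35% were called lower and 4.69% higher in the same fit. Of the 12316 genes of at least 1 CPM, as all members are, 1156 were lower and 1011 higher. In ABpIF/F as compared to Ctrl, 20 members fell and 0 rose, beside 2.38% of all genes lower and 4.55% higher. Of the 12316 genes, 621 were lower and 928 higher. The members' log2 fold changes had a median of -1.003 in ABpIF/+ and -1.006 in ABpIF/F, where that of the 12316 genes of at least 1 CPM was 0.02 and -0.00. Dropping the fold threshold, 29 members were lower and 0 higher in ABpIF/+ (9.16% and 9.25% of all genes), and 29 lower and 1 higher in ABpIF/F (4.78% and 6.16% of all genes). Of the 12316 genes, 2192 were then lower and 2249 higher in ABpIF/+, and 1273 lower and 1367 higher in ABpIF/F. Both comparisons use the same Ctrl mice, so they are not independent of each other. Together the 41 genes took 1.36% to 1.86% of all counts in Ctrl, 0.49% to 0.63% in ABpIF/+ and 0.54% to 0.82% in ABpIF/F livers.

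**Figure D1:**
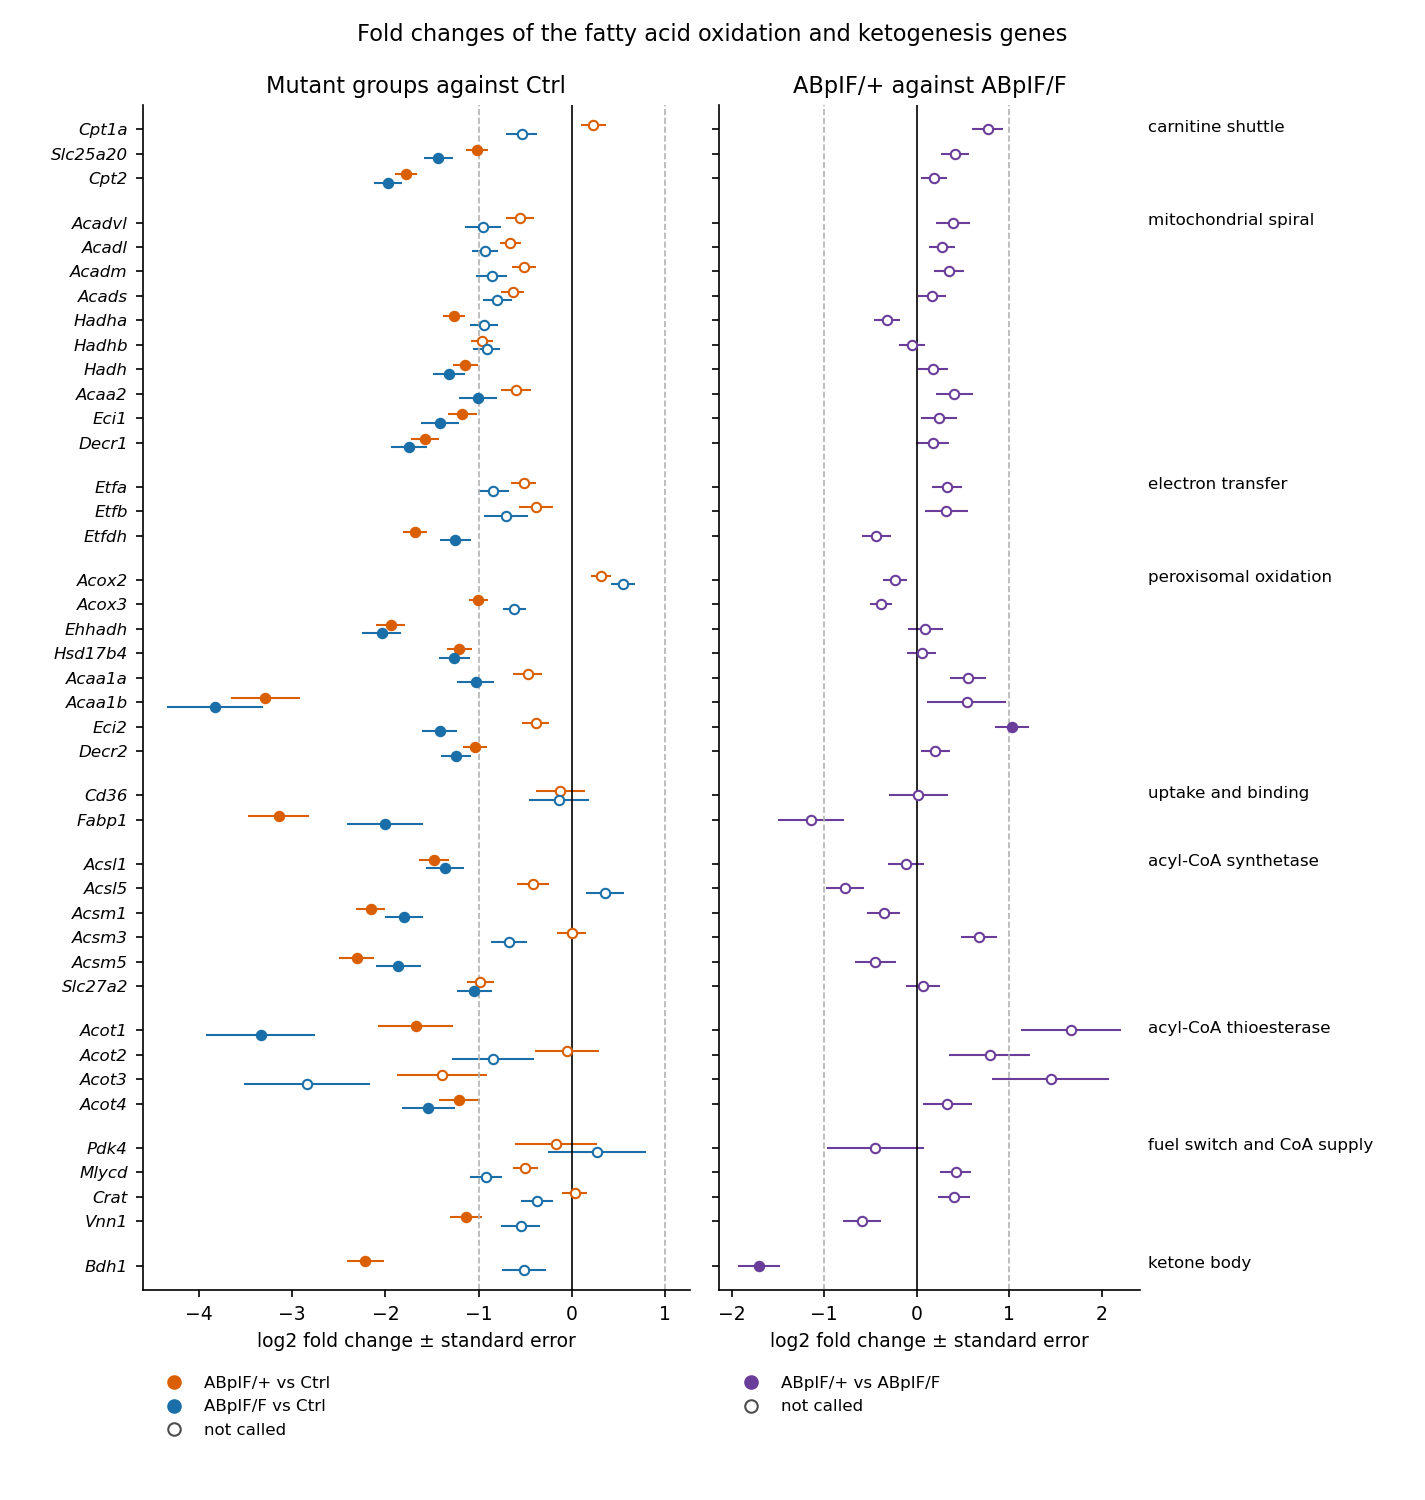
Log2 fold change ± standard error (horizontal axes) of each of the 41 genes, grouped by step. Left, ABpIF/+ (orange) and ABpIF/F (blue) against Ctrl; right, ABpIF/+ against ABpIF/F; filled points passed the threshold, open points did not, and dashed lines mark a 2-fold change. Filled points of the left panel all lie below 0 (20 in each comparison), whereas the right panel has 2 filled points, Bdh1 below 0 and Eci2 above.

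Genes of both organelles were among those that fell. For the 16 mitochondrial genes the median of the log2 fold changes was -0.81 in ABpIF/+ and -0.95 in ABpIF/F, with 7 called lower in each. The 8 peroxisomal genes had medians of -1.02 and -1.25, with 5 and 6 called lower. The summed level of the mitochondrial genes was 4262 to 5823 CPM in Ctrl livers, 2657 to 3277 in ABpIF/+ livers and 1870, 2305 and 2924 in ABpIF/F livers. For the peroxisomal genes the sums were 1781 to 3325, 874 to 1041, and 668, 710 and 1016 CPM. Neither sum overlapped between Ctrl and mutant mice, and both mutant groups overlapped each other.

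**Figure D2:**
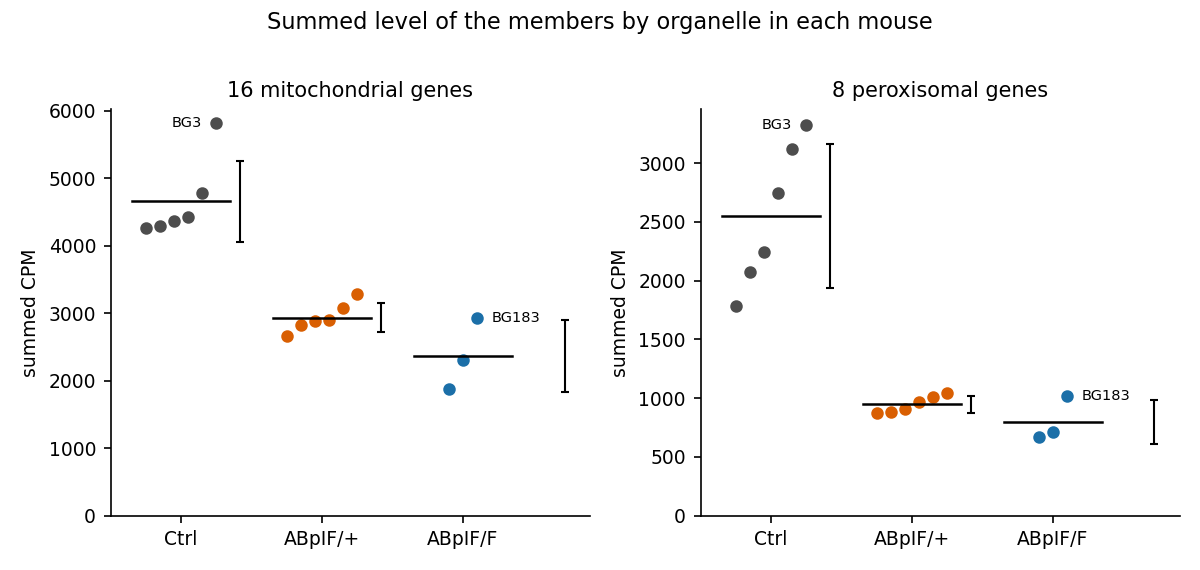
Summed CPM (vertical axes, from 0) of the 16 mitochondrial and the 8 peroxisomal genes in each mouse; each point is 1 mouse, the horizontal line is the group mean and the bar its SD. All mutant mice sit below all Ctrl mice in both panels; BG3 is the highest Ctrl mouse and BG183 the highest ABpIF/F mouse.

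Of the carnitine shuttle, Cpt2 and Slc25a20 fell in both mutant groups and Cpt1a in neither. Cpt2 (chr4:107903981-107923610) encodes the inner-membrane transferase that returns the acyl group to CoA. It ranged from 105 to 152 CPM in Ctrl (median 127) and from 34.8 to 40.6 in ABpIF/+ (median 37.1), and was at 27.7, 30.0 and 40.0 CPM in ABpIF/F livers. Both mutant groups lay below all Ctrl mice, at log2 fold changes of -1.78 ± 0.12 (SE, adjusted p = 1.57e-10) and -1.97 ± 0.15 (adjusted p = 6.85e-09). Slc25a20, the carnitine-acylcarnitine carrier between both transferases, changed by -1.02 ± 0.12 and -1.43 ± 0.16. Without BG3, BG30 or BG88 the call of Slc25a20 in ABpIF/+ was lost, since its fold lies at the threshold.

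Cpt1a (chr19:3322334-3385733) encodes the outer-membrane transferase, the entry step that malonyl-CoA inhibits. Its level was 330 to 502 CPM in Ctrl (median 456), 460 to 605 in ABpIF/+ (median 496) and 244, 322 and 334 in ABpIF/F livers. ABpIF/+ mice overlapped Ctrl mice at the upper end, and of the ABpIF/F mice 1 lay just above the lowest Ctrl mouse and the others below it. Against Ctrl the log2 differences were 0.23 ± 0.13 (adjusted p = 0.255) and -0.54 ± 0.17 (adjusted p = 0.027), neither past the threshold.

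Within the β-oxidation spiral all 10 genes were lower in both mutant groups at an adjusted p under 0.01, but most by less than 2-fold. The acyl-CoA dehydrogenases of descending chain length, Acadvl, Acadl, Acadm and Acads, had log2 fold changes between -0.51 and -0.66 in ABpIF/+ and between -0.80 and -0.95 in ABpIF/F. Hadh, the short-chain hydroxyacyl-CoA dehydrogenase, changed by -1.14 ± 0.13 and -1.32 ± 0.17, and Eci1, the enoyl-CoA isomerase for unsaturated chains, by -1.17 ± 0.16 and -1.41 ± 0.20. Acaa2, the last thiolase, had -0.60 ± 0.16 and -1.01 ± 0.20, and its call in ABpIF/F was lost without BG3, malpa387 or BG38 (-0.91, -0.99 and -0.77). No Ctrl value overlapped a mutant value in any of the 10 genes, a pattern that 31.3% (ABpIF/+) and 31.6% (ABpIF/F) of genes of at least 1 CPM also had.

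Decr1 (chr4:15917240-15945507), the mitochondrial dienoyl-CoA reductase that polyunsaturated fatty acids require, changed most of the spiral. Ctrl livers had 162 to 256 CPM (median 178), ABpIF/+ livers 49.6 to 79.5 (median 62.3) and ABpIF/F livers 41.2, 53.3 and 73.8. BG3 at 256 CPM stood above the other Ctrl mice, none of which passed 181 CPM. The log2 fold changes were -1.57 ± 0.15 (adjusted p = 3.66e-08) and -1.75 ± 0.19 (adjusted p = 1.08e-06).

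Hadha and Hadhb flank the 85-base stretch printed above. Hadha changed by -1.27 ± 0.12 in ABpIF/+ and -0.95 ± 0.15 in ABpIF/F, and Hadhb by -0.96 ± 0.12 and -0.92 ± 0.15. Of these only Hadha in ABpIF/+ passed the fold threshold, all had an adjusted p under 0.01, and the difference between the genes was not tested. Of the 100-base stretches of the Hadhb mRNA, 52.8% also occur exactly in the annotated copies Gm13910 and Gm9108, so reads of Hadhb could be lost or shared in counting.

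Of the electron transfer genes only Etfdh fell past the threshold. Etfa and Etfb encode the subunits of the flavoprotein that takes electrons from the dehydrogenases, and Etfdh (chr3:79603788-79629500) the membrane oxidoreductase that passes them to ubiquinone. Etfdh stood at 202 to 276 CPM in Ctrl (median 227), 61.7 to 86.0 in ABpIF/+ (median 72.0), and 78.9, 90.9 and 126 in ABpIF/F livers. All mutant mice lay below all Ctrl mice, at log2 fold changes of -1.69 ± 0.13 (adjusted p = 2.16e-09) and -1.25 ± 0.17 (adjusted p = 1.00e-05). Etfa had -0.52 ± 0.13 and -0.84 ± 0.17, and Etfb -0.39 ± 0.19 (adjusted p = 0.148) and -0.71 ± 0.23 (adjusted p = 0.0401). Etfb shares 65.2% of its 100-base stretches with the annotated copy Gm45233, so its counts are uncertain.

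Among the peroxisomal genes the bifunctional enzymes and the thiolase Acaa1b were lowered and the oxidase Acox2 was not. Ehhadh, the bifunctional enzyme of straight-chain and dicarboxylic acids, changed by -1.94 ± 0.16 (adjusted p = 4.1e-09) and -2.04 ± 0.21 (adjusted p = 2.89e-07), from a mean of 416 ± 74.7 CPM (SD, n = 6) in Ctrl to 108 ± 13.9 (n = 6) and 101 ± 33.9 (n = 3). Hsd17b4, its counterpart for branched chains and bile acid precursors, changed by -1.21 ± 0.13 and -1.26 ± 0.17, and Decr2, the peroxisomal dienoyl-CoA reductase, by -1.04 ± 0.13 and -1.24 ± 0.16. Acox2, the oxidase of branched chains and bile acid precursors, was the only member higher at an adjusted p under 0.01 in either comparison, by 0.55 ± 0.13 in ABpIF/F (adjusted p = 0.00387), under 2-fold. Acox3, the other branched-chain oxidase, changed by -1.003 ± 0.10 in ABpIF/+ and -0.62 ± 0.12 in ABpIF/F. The call of Acox3 in ABpIF/+ was lost without malpa458, malpa459, malpa462, BG30, BG31 or BG55, as its fold lies at the threshold, and with strain label as covariate (-0.91).

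The thiolase pair differed in level in Ctrl livers. In Ctrl livers Acaa1b was the more abundant, with a level of 487 CPM per kilobase of annotated exon against 43.5 for Acaa1a, or 566 against 109 per kilobase of the annotated mRNA. In mutants the order depended on the length used. Per kilobase of exon Acaa1b was at 49.8 against 31.3 in ABpIF/+ and 34.3 against 21.3 in ABpIF/F, and per kilobase of mRNA at 57.9 against 78.4 and 39.9 against 53.3. Acaa1b spanned 441 to 1472 CPM in Ctrl (median 899), 69.0 to 134 in ABpIF/+ (median 94.1) and 33.2, 47.7 and 121 in ABpIF/F livers. Although Ctrl mice varied over 3-fold, no mutant came near them. The log2 fold changes, -3.29 ± 0.37 (adjusted p = 7.41e-06) and -3.83 ± 0.51 (adjusted p = 8.28e-05), were the largest among the 41 genes in both comparisons. Acaa1a ranged from 146 to 280 CPM in Ctrl (median 182) and from 116 to 169 in ABpIF/+ (median 137), which overlapped, and stood at 80.6, 89.1 and 112 in ABpIF/F livers, which did not. Its log2 fold changes were -0.48 ± 0.15 (adjusted p = 0.0251) and -1.03 ± 0.20 (adjusted p = 0.000602). The latter call was lost without BG3, BG38 or BG90. Because the mRNAs share sequence, some reads of one may be counted on the other or on neither.

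**Figure D3:**
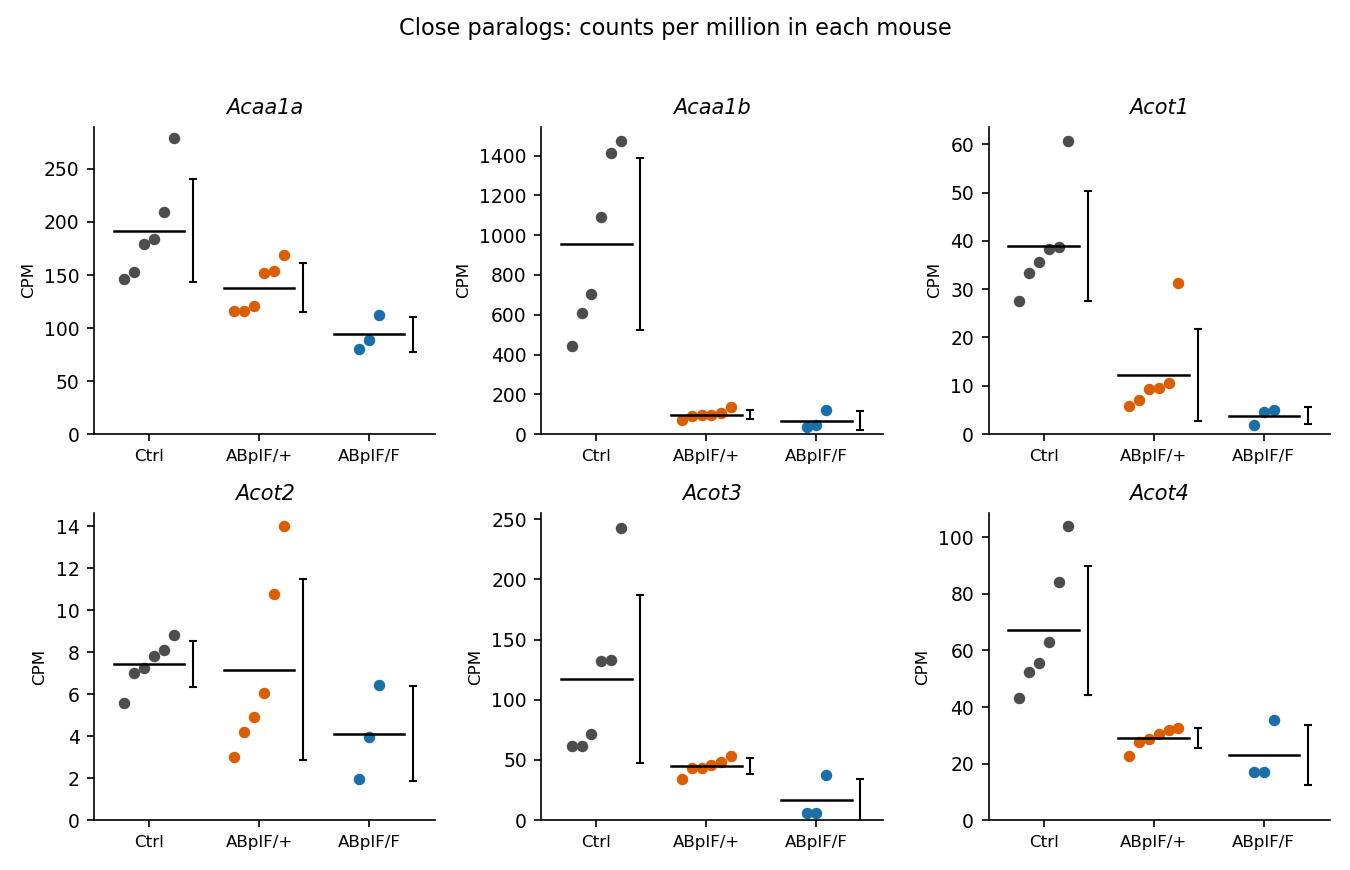
CPM (vertical axes, from 0) in each mouse of the thiolases Acaa1a and Acaa1b and the thioesterases Acot1 to Acot4; points are mice, lines group means and bars SD. Acaa1b shows mutant mice at 134 CPM or less and Ctrl mice at 441 or more, and Acot2 shows overlapping groups.

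Fabp1, the liver fatty acid binding protein and by level per kilobase the most abundant of the 41 genes in Ctrl livers (6210 CPM per kb), was strongly lowered, whereas Cd36, the membrane transporter, was not called. Fabp1 (chr6:71199827-71205023) had 2718 to 5614 CPM in Ctrl (median 3074), 283 to 569 in ABpIF/+ (median 386), and 301, 732 and 1536 in ABpIF/F livers. The highest mutant, BG183, remained below the lowest Ctrl mouse. The log2 fold changes were -3.15 ± 0.33 (adjusted p = 1.34e-06) and -2.003 ± 0.41 (adjusted p = 0.00214). In ABpIF/F the call was lost without BG90 (-1.90, adjusted p = 0.0169), and the log2 fold change ran from -1.60 without BG38 to -2.73 without BG183. Cd36 had log2 differences of -0.12 ± 0.26 and -0.14 ± 0.32.

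Of the acyl-CoA synthetases, Acsl1, Acsm1 and Acsm5 fell in both mutant groups. Acsl1, which activates long chains at mitochondria and the endoplasmic reticulum, changed by -1.48 ± 0.16 and -1.36 ± 0.21. Slc27a2, a very-long-chain synthetase and transporter, had -0.98 ± 0.15 and -1.05 ± 0.19, only the latter past 2-fold and not without BG3, BG38 or BG90 (-0.999, -0.97 and -0.87). Acsm1, Acsm3 and Acsm5, medium-chain synthetases of the mitochondrial matrix, lie within chr7:119519463-119787513. Acsm5 ranged from 103 to 152 CPM in Ctrl (median 127) and from 18.7 to 39.6 in ABpIF/+ (median 23.5), and stood at 26.4, 29.6 and 50.4 in ABpIF/F livers. No mutant reached the lowest Ctrl value, at log2 fold changes of -2.31 ± 0.19 (adjusted p = 1.71e-08) and -1.86 ± 0.24 (adjusted p = 1.56e-05). Acsm1 changed by -2.16 ± 0.16 and -1.80 ± 0.20. Their neighbour Acsm3 had -0.00 ± 0.15 (adjusted p = 1) and -0.67 ± 0.19 (adjusted p = 0.0164), and Acsl5 -0.42 ± 0.17 and 0.36 ± 0.20, none of them called.

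The acyl-CoA thioesterases Acot1 to Acot4, which split acyl-CoA back to free acid in the cytosol (Acot1), mitochondria (Acot2) and peroxisomes (Acot3 and Acot4), stand in a row within chr12:83987861-84060402. Acot1 had 27.5 to 60.7 CPM in Ctrl (median 37.0), 5.85 to 31.3 in ABpIF/+ (median 9.42), and 1.86, 4.63 and 4.99 in ABpIF/F livers. BG55 at 31.3 CPM was the one ABpIF/+ mouse within the Ctrl range, as the others did not pass 10.5 CPM. The log2 fold changes were -1.67 ± 0.40 (adjusted p = 0.00691) and -3.34 ± 0.58 (adjusted p = 0.00118). The former call was lost in 10 of the 15 fits that left out 1 mouse, with adjusted p up to 0.0187, but not in the fit without BG55. It was also lost with strain label as covariate.

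Acot4 fell as well, with 43.1 to 104 CPM in Ctrl (median 59.4), 22.7 to 32.7 in ABpIF/+ (median 29.6), and 16.9, 17.1 and 35.3 in ABpIF/F livers, which leaves no overlap with Ctrl. Its log2 fold changes were -1.21 ± 0.22 (adjusted p = 0.000402) and -1.54 ± 0.28 (adjusted p = 0.000848). Both calls were lost with strain label as covariate (adjusted p = 0.213 and 0.101), and the latter without BG38 (adjusted p = 0.011). Acot3 ranged from 61.8 to 243 CPM in Ctrl (median 102) and from 33.8 to 53.6 in ABpIF/+ (median 44.6), and stood at 5.79, 6.07 and 37.4 in ABpIF/F livers. Its groups did not overlap Ctrl either, but -1.39 ± 0.48 (adjusted p = 0.0515) and -2.84 ± 0.68 (adjusted p = 0.0103) missed the threshold. Both passed with DESeq2, without robust estimation or without BG183, that of ABpIF/+ also with only the groups compared in the fit, and that of ABpIF/F also with a low-count filter or edgeR's newer test. Acot2 was at 5.597 to 8.82 CPM in Ctrl (median 7.53), 2.98 to 14.0 in ABpIF/+ (median 5.49), and 1.97, 3.95 and 6.45 in ABpIF/F livers, with overlapping groups. Of the 100-base stretches of each mRNA, 21.9% of those of Acot1, 17.1% of Acot2, 14.3% of Acot3 and 0.36% of Acot4 also occur exactly in another gene, so levels of the first 3 are less certain.

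Of the genes of fuel choice and CoA supply, 1 of 4 was called. Vnn1 (chr10:23894688-23905343), a pantetheinase that recycles a precursor of CoA, had 45.5 to 64.2 CPM in Ctrl (median 58.5), 17.3 to 37.3 in ABpIF/+ (median 27.3), and 31.1, 31.7 and 54.6 in ABpIF/F livers. ABpIF/+ mice lay below Ctrl mice (-1.14 ± 0.17, adjusted p = 3.38e-05, but 0.0212 with strain label as covariate), and BG183 lay among them (-0.55 ± 0.21, adjusted p = 0.0859). Mlycd, malonyl-CoA decarboxylase, was lower by less than 2-fold (-0.50 ± 0.13 and -0.92 ± 0.17, adjusted p = 0.00683 and 0.000431). Pdk4, the kinase that shuts pyruvate dehydrogenase in fasting, stood under 10 CPM in every mouse, at differences of -0.17 ± 0.44 and 0.27 ± 0.53. Crat, carnitine acetyltransferase, had 0.03 ± 0.14 and -0.37 ± 0.17.

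Bdh1 (chr16:31422280-31458901), the mitochondrial dehydrogenase that interconverts the ketone bodies acetoacetate and 3-hydroxybutyrate, fell in ABpIF/+ livers. It was at 261 to 408 CPM in Ctrl (median 300), 36.0 to 97.7 in ABpIF/+ (median 69.9), and 170.5, 221 and 265 in ABpIF/F livers. The ABpIF/+ mice formed the lowest range, apart from all other mice, and the highest ABpIF/F mouse just entered the Ctrl range. The log2 fold change was -2.22 ± 0.20 (adjusted p = 2.99e-08) in ABpIF/+ and -0.51 ± 0.24 (adjusted p = 0.172) in ABpIF/F.

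**Figure D4:**
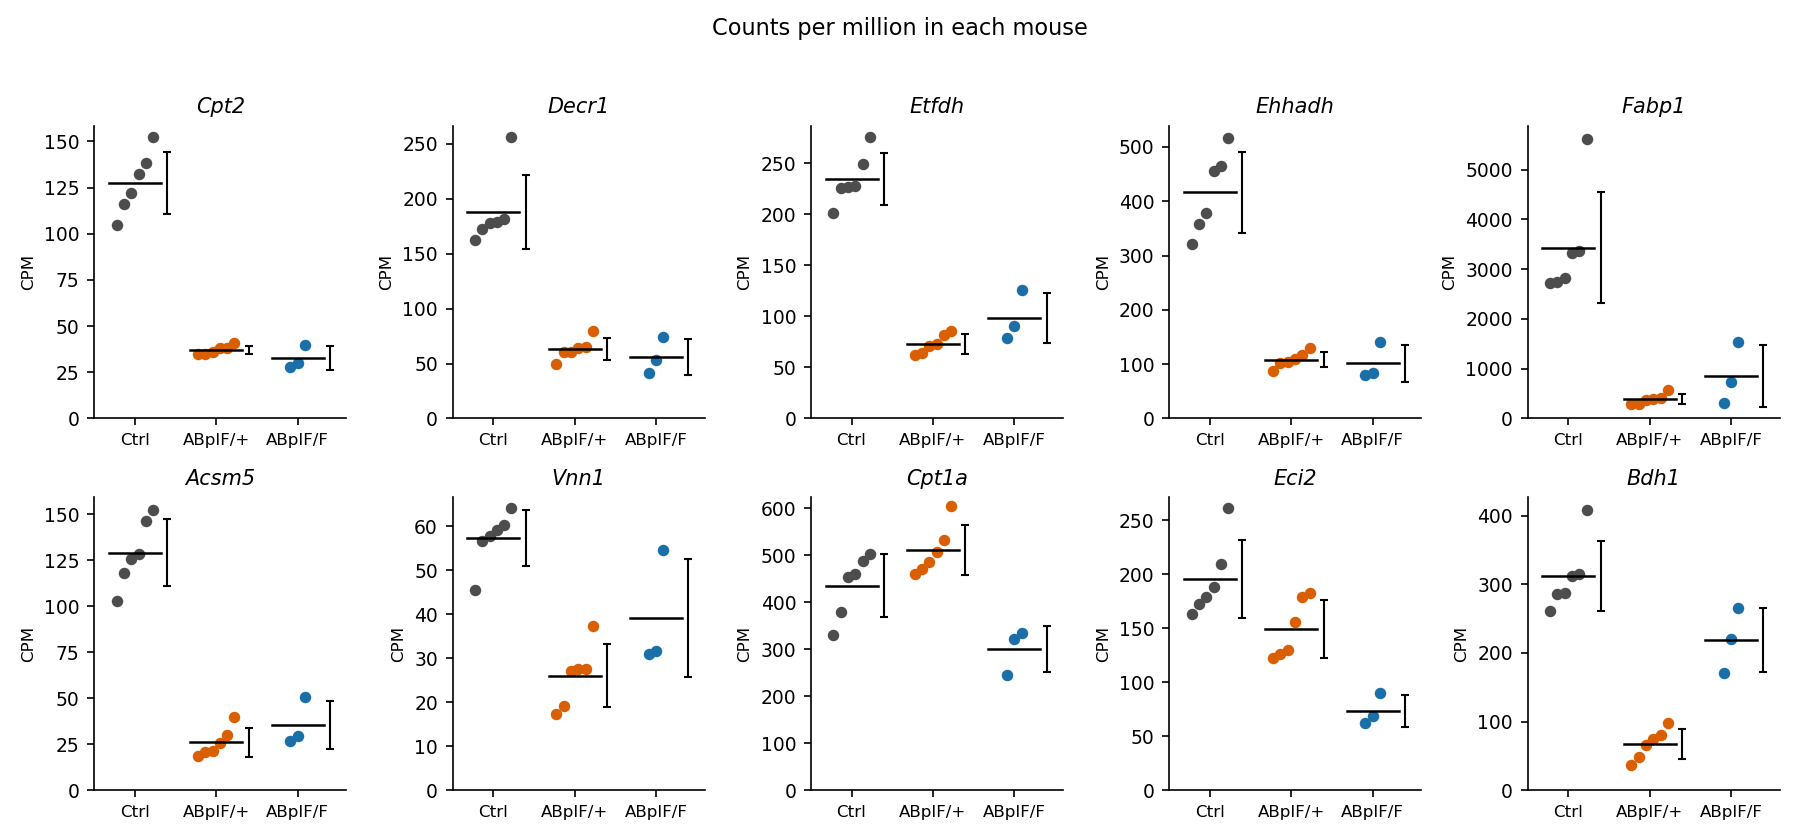
CPM (vertical axes, from 0) of 10 genes in each mouse; points are mice, lines group means and bars SD. In the upper row mutant mice of both genotypes lie below all Ctrl mice; in the lower row Eci2 is lowest in the 3 ABpIF/F mice and Bdh1 in the 6 ABpIF/+ mice.

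Comparing the livers of ABpIF/+ and ABpIF/F mice asks what loss of the second Icmt allele adds, and here strain label does not differ. The study describes weight loss and signs of illness in ABpIF/+ mice, but not in Ctrl or ABpIF/F mice. Feeding state and time of collection are not stated in its methods. Body condition therefore cannot be told apart from genotype, and its part was not tested. Few members passed: 1 was lower in ABpIF/+ (Bdh1, beside 5.49% of all genes) and 1 higher (Eci2, beside 1.76%), and 39 were not called. Of the 12316 genes of at least 1 CPM, 1047 were lower and 458 higher. The median log2 difference of the 41 genes was 0.19, that of genes of at least 1 CPM 0.04. The groups did not overlap in 8 members, where 34.2% of genes of at least 1 CPM did not. The median was 0.25 for the 16 genes of the carnitine shuttle, spiral and electron transfer, none of them called, and 0.15 for the 8 of peroxisomal oxidation. With 3 mice in a group a miss does not show that levels were alike. Ehhadh, for example, differed by 0.09 ± 0.19 and Acot1 by 1.67 ± 0.54 (adjusted p = 0.0494).

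Bdh1 was lower in ABpIF/+ than in ABpIF/F by -1.71 ± 0.22 on the log2 scale (adjusted p = 2.44e-05), with the highest ABpIF/+ mouse at 97.7 CPM and the lowest ABpIF/F mouse at 170.5. The call held in all 15 fits that left out 1 mouse, between -1.86 and -1.55. Eci2 (chr13:34977748-35027096), the enoyl-CoA isomerase found in peroxisomes and mitochondria, stood at 164 to 261 CPM in Ctrl (median 184), 123 to 183 in ABpIF/+ (median 143), and 61.8, 68.6 and 89.6 in ABpIF/F livers. ABpIF/+ and Ctrl mice overlapped, and the ABpIF/F mice lay under both. The difference between the mutant groups was 1.03 ± 0.18 (adjusted p = 0.000391), and against Ctrl ABpIF/+ had -0.39 ± 0.14 (adjusted p = 0.0502) and ABpIF/F -1.42 ± 0.19 (adjusted p = 1.01e-05). Without BG31, BG55, BG38 or BG90 the log2 difference between mutant groups was under 1, down to 0.92 (adjusted p = 0.00562) without BG90. At any fold 2 members were lower and 2 higher, beside 6.75% and 4.2% of all genes (1390 and 1122 of the 12316). Those added were Cpt1a, higher (0.77 ± 0.17, adjusted p = 0.00234) and Acsl5, lower (-0.78 ± 0.20, adjusted p = 0.00859), in ABpIF/+ livers. For Cpt1a the adjusted p rose to 0.027 without BG90 and to 0.24 (difference 0.40) with the clock score described below as covariate. For Acsl5 it was above 0.01 in 12 of the 15 fits without 1 mouse, up to 0.0785 without BG90, and 0.434 with that covariate. Fabp1, at -1.14 ± 0.36 (adjusted p = 0.0353), missed the threshold.

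Several measures moved with the groups, and their part in the results above was not tested unless a value is given. Leaving out BG3, the Ctrl mouse with the strain label of the mutants, left 18 members lower in ABpIF/+ and 17 in ABpIF/F. The same fit called 1384 and 604 of all genes lower, against 1454 and 647 in the main fit. Against BG3 alone, all ABpIF/+ mice were lower in 35 members and all ABpIF/F mice in 37, beside 33.4% and 38.3% of the 12316 genes of at least 1 CPM. Against all other Ctrl mice the counts were 29 and 30, beside 17.3% and 17.7% of these genes. Leaving out BG183 raised the count of members lower in ABpIF/F from 20 to 29, and that of all genes from 647 to 796. The added members were Acadvl, Acadl, Acadm, Acads, Hadha, Hadhb, Etfa, Acot3 and Mlycd. BG183 had the highest Alb share (18.1%) and the lowest summed cholangiocyte markers (239 CPM against 816 and 1203) of the ABpIF/F mice. Ctrl livers had 50.4 to 88.7 CPM of these markers and ABpIF/+ livers 55.4 to 177, and 6 of the 8 were higher in ABpIF/F than in Ctrl.

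Of the other marker lists, hepatocyte genes were called lower in 0 of 10 (ABpIF/+) and 2 of 10 (ABpIF/F) and higher in 2 and 1. Their sums were 98881 to 130631 CPM in Ctrl, 162720 to 217382 in ABpIF/+, and 116507, 176796 and 204405 in ABpIF/F livers. Stellate cell and fibroblast genes were lower in 7 of 9 in ABpIF/+ and in 0 of 9 in ABpIF/F, with sums of 217 to 288 CPM in Ctrl, 59.5 to 127 in ABpIF/+ and 241 to 390 in ABpIF/F livers. Macrophage genes were lower in 4 of 8 and 0 of 8, with sums of 365 to 500, 151 to 261, and 308 to 757 CPM, and endothelial genes in 2 of 8 and 0 of 8. All 8 lymphocyte and 5 of the 6 adipocyte markers averaged under 1 CPM. A clock score (the mean standardised level of morning genes minus that of evening genes) was -1.13 to -0.19 in ABpIF/+, 1.03, 1.70 and 3.38 in ABpIF/F, 2.41 in the Ctrl mouse malpa387 and -1.34 to -0.47 in the other Ctrl mice. Outside ABpIF/F only malpa387 had a positive score, so the score and the ABpIF/F genotype can hardly be told apart. With this score in the model, 20 members were lower in ABpIF/+ and 16 in ABpIF/F, beside 1418 and 434 of all genes. In the main fit 1454 and 647 of all genes were lower. In ABpIF/F Acaa2, Acaa1a, Fabp1, Slc27a2 and Acot4 were lost and Acadvl was gained. Eci2 no longer passed between the mutant groups (0.99, adjusted p = 0.0135). There the score took all genes called lower from 1491 to 443 and those called higher from 478 to 355.

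Further genes of the pathway, 66 in all, were counted from lists set beside the members. In ABpIF/+ as compared to Ctrl 23 were lower and 2 higher, beside 5.35% and 4.69% of all genes. In ABpIF/F 24 were lower and 2 higher, beside 2.38% and 4.55%. Between the mutant groups 5 were lower and 5 higher in ABpIF/+, beside 5.49% and 1.76%. Of the 12316 genes of at least 1 CPM, 1047 were lower and 458 higher there. Of the 66, 33 genes of other mitochondrial and peroxisomal oxidation and of ketone bodies had 16 lower and 0 higher in ABpIF/+ (median -0.92). In ABpIF/F these 33 had 12 lower and 1 higher (median -0.89). Ppara, which encodes PPARα, was at 173 to 464 CPM in Ctrl (median 376), 196 to 249 in ABpIF/+ (median 223), and 75.0, 102 and 143 in ABpIF/F livers. The lowest Ctrl mice, malpa387 and BG3, lay below and within the ABpIF/+ range, and the ABpIF/F mice lay below all others. The log2 fold changes were -0.60 ± 0.21 (adjusted p = 0.0389) and -1.66 ± 0.28 (adjusted p = 0.000209), and between the mutant groups 1.06 ± 0.27 (adjusted p = 0.00811). Fits with covariates or without 1 mouse were read out per gene for the members only. Whether the calls of Ppara and of the further genes named below hold in them was not examined.

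Among the further genes with at least 5 CPM in 1 group, the largest falls in ABpIF/+ were those of Nudt7 (-3.61 ± 0.36), a peroxisomal hydrolase of CoA, Crot (-2.98 ± 0.29), the peroxisomal carnitine octanoyltransferase, Acacb (-2.67 ± 0.37), the acetyl-CoA carboxylase that makes malonyl-CoA at mitochondria, and Plin2 (-2.06 ± 0.25), a lipid droplet coat protein. In ABpIF/F they were those of Cyp4a10 (-4.28 ± 0.58) and Cyp4a14 (-3.83 ± 0.65), microsomal ω-hydroxylases, Acacb (-3.11 ± 0.51) and Angptl4 (-2.94 ± 0.54), a secreted lipase inhibitor. Cyp4a31, a further ω-hydroxylase, rose in both (2.65 ± 0.16 and 1.67 ± 0.18), although 8.22% of its 100-base stretches also occur in Cyp4a32 or Cyp4a10. For Cyp4a10, 12.7% also occur in Cyp4a32 or Cyp4a31, so its counts are uncertain too. Ppargc1a, a coactivator of oxidative genes, rose in ABpIF/+ (1.43 ± 0.19), and Slc16a6, a ketone body exporter, in ABpIF/F (1.43 ± 0.29).

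Between the mutant groups Cyp4a10 (2.71 ± 0.53), Plin5 (1.73 ± 0.28), which ties lipid droplets to mitochondria, Ppargc1a (1.36 ± 0.25) and Aldh3a2 (1.29 ± 0.21), a fatty aldehyde dehydrogenase, were higher in ABpIF/+. Crot (-2.38 ± 0.32), Slc16a6 (-1.40 ± 0.29) and Plin2 (-1.33 ± 0.28) were lower. Crot was at 47.2 to 81.5 CPM in ABpIF/+ (median 63.4) against 239, 246 and 528 in ABpIF/F livers, so that, as with Bdh1, the ABpIF/+ livers stood apart as the lowest.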

How the data were processed

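Polyadenylated RNA of 15 livers was sequenced from stranded libraries. Per the study's methods and the submitters' processing notes, the authors aligned paired reads to mm10 with HISAT2 (version 2.21 in those notes) and counted them per Entrez gene with featureCounts 2.0.8, whose annotation and strand setting are not given in the sources used here. The deposited values are raw counts, 1 column per mouse (24742910 to 32262649 per mouse), and 8 mice are named by 2 samples each. A second deposited table repeats 10 columns with 0 differing cells. Its 5 columns named by a number only, and its columns with the authors' fold changes, mean levels, test statistics and p-values, were not used.

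Counts were scaled by TMM and tested with edgeR 4.0.16 (limma 3.58.1, R 4.3.3), by the older quasi-likelihood F-test with robust estimation, over all 27179 genes and 15 mice in 1 fit of 3 groups, with Benjamini-Hochberg adjustment. A call needs an adjusted p under 0.01 and at least a 2-fold change. SE is the log2 fold change over the root of F. CPM are TMM-scaled, and levels per kilobase use GENCODE M21 exon lengths. The test was checked on simulated counts. Alternatives were DESeq2 1.42.0, RLE scaling, a low-count filter, edgeR's newer test, covariates and leaving out each mouse. Replicates are mice, not stated to be littermates.

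The members and all gene lists were chosen with earlier results of these data known, so no list was tested as a set. Values in every mouse are given for the called member with the largest change per step and comparison, the Acaa1 and Acot paralogs, Cpt1a and Bdh1. Of the other pathway genes, up to 4 called genes per comparison and direction with at least 5 CPM in 1 group are named, and Ppara. Hadha and Hadhb were shown for their shared upstream stretch, and the GC and CCAAT boxes were chosen after the sequences were seen. Promoter windows matched 36 of the 41 members. Python 3.11.15 and matplotlib 3.10.9 drew the figures.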

Additional observations from a re-analysis of the deposited data

Results flagged for a closer look

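Within Ctrl and ABpIF/+, each with 6 mice, 82 groups of values (41 genes in each group) were searched for a single mouse far from the others by Dixon's criterion, which chance meets in about 1 of 20 groups, or 4.1 here; 11 were found, and groups of 3 were not searched. BG3, the Ctrl mouse with the strain label of the mutants, was the high value in 8 of them: Slc25a20 (135 CPM, next 102), Acadl (250, next 208), Hadhb (207, next 169), Acaa2 (1109, next 869), Decr1 (256, next 181), Fabp1 (5614, next 3374), Acot1 (60.7, next 38.6) and Bdh1 (408, next 315). The other 3 were Cd36 (77.1 CPM, next 44.0) and Acsl5 (599, next 431) in the Ctrl mouse malpa387, whose clock score of 2.41 stood apart from the other Ctrl mice, and Acot1 in the ABpIF/+ mouse BG55 (31.3 CPM, next 10.5). Whether strain label or clock state has a part in these values was not tested.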

How the results depend on the processing

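No member changed direction past the threshold under any alternative, and with RLE scaling no call changed (CPM moved by at most 1.62%). Requiring a log2 fold change of at least 2 left 5 members lower in ABpIF/+ and 4 in ABpIF/F against Ctrl, and any fold added 1 higher member in ABpIF/F. With strain label as covariate, where Ctrl rests on BG3 alone, the mitochondrial medians moved to -1.12 (ABpIF/+) and -1.34 (ABpIF/F) and the peroxisomal ones to -1.10 and -1.48, and 19 and 28 members were lower, beside 811 and 691 of all genes. Per kilobase of mRNA in place of exon, a scaling added after seeing the data, the log2 ratio of Acaa1b to Acaa1a turned to -0.44 in ABpIF/+ and -0.42 in ABpIF/F. Between the mutant groups, 2 members were lower and 2 higher with DESeq2, at an adjusted p under 0.05 and at any fold, 0 and 0 at a log2 fold change of at least 2, and 0 higher with the clock score as covariate. The peroxisomal median between the mutant groups was 0.094 without Eci2. Leaving out each mouse gave 17 to 21 members lower in ABpIF/+ against Ctrl, beside 1323 to 1492 of all genes. In ABpIF/F it gave 16 (without BG38) to 29 (without BG183), beside 438 to 796 of all genes. Between the mutant groups it gave 1 to 3 lower (3 without BG38) and 0 to 2 higher (0 without BG31, BG55, BG38 or BG90, 2 without BG183), and medians of 0.10 to 0.46 (mitochondrial) and 0.030 to 0.43 (peroxisomal), the highest of both without BG183. The cause of these changes was not tested. No paired analysis was possible because the replicate numbers only name mice and the count columns carry none. With 3 ABpIF/F mice, changes near 2-fold lie at the limit of what can be called, and p-values cover the spread between these mice.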
